A study of Mus musculus with 71 samples.

Results

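Expression drift over the DMSO chase was measured by comparing read counts per gene at the end of s4U labelling (T0) with those 12 h after washout (T7), in 4 DMSO libraries each. These 8 libraries are part of 71 in the series, and 10891 of 21527 listed genes had enough reads to be tested. The cells were male mouse embryonic stem cells (mESCs) grown in 2i/LIF medium, which holds GSK3 and MEK inhibitors and the cytokine LIF. They carried 100 µM s4U for 24 h, received DMSO (the vehicle of the METTL3 inhibitor STM2457) 6 h before the chase, and were then chased in excess uridine with DMSO kept on. By the study's methods, medium was exchanged repeatedly during labelling, and cells were washed and given fresh medium at the chase. Seeding aimed at full confluency at collection. The part of feeding and cell density in the drift was not tested. Libraries at 1 h, 1.5 h, 2.3 h, 3.5 h, 5.3 h and 8 h (T1 to T6) showed the course, and STM2457 libraries and DMSO libraries without s4U served for comparison.

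SLAM-seq reads RNA decay from the loss of the labelled uridine analogue s4U, which appears as T-to-C conversions after alkylation. A half-life read from the conversion rate alone rests on a steady state, in which the level of a transcript does not change while its labelled copies are replaced. The read counts of the same libraries measure those levels relative to the other genes of each library. A change shared by all genes would not show in them. Because QuantSeq 3′ counts are relative to the library, fewer cells of a type and less RNA per cell cannot be told apart.

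The 32 labelled DMSO libraries held 4539726 to 7118182 reads. The T7 libraries were shallower than the T0 libraries, with 4539726 to 5453473 reads against 5803916 to 7118182. The share of multimapping reads was 27.2% ± 0.632 (SD, n = 4) at T0 and 23.8% ± 0.310 at T7, and the T-to-C rate was 1.37% ± 0.0668 and 0.279% ± 0.0104. In each of these 3 measures the groups did not overlap (p = 0.0286 by a two-sided exact permutation test, which 4 against 4 libraries cannot go below; adjusted p = 0.0381 over 4 measures). The naive pluripotency list, with 20 genes in the tables, was expressed in every library. Its summed level was 5581 to 5899 TMM-scaled CPM (reads per 1e6 reads) at T0 and 3913 to 4114 at T7. The 8 fibroblast markers in the tables summed to 15.1 to 18.8 CPM at T0 and 11.4 to 17.4 at T7, with Postn at 0 reads.

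Variation between the DMSO libraries did not follow the chase alone. The first principal component held 48.5% of the variance of log2 levels, and its mean score was -0.053 at T0, -0.20 at T1, -0.11 at T2 and -0.15 at T5, but between 0.11 and 0.17 at T3, T4, T6 and T7. The unlabelled libraries had a mean of -0.053. The second component, with 11.04% of the variance, was lowest at T3 (mean -0.13) among the labelled time points and highest at T7 (0.37), above every other DMSO library. T0 and T7 were thus separated on both components, whereas T3 and T4 were close to T7 on the first one only. What sets the first component was not tested, and no batch is named in the labels, so the main gene groups are also given with T3 or T4 as the start, which was decided after seeing the data.

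Between T0 and T7, 1830 of 10891 tested genes changed (16.8%, edgeR quasi-likelihood test, Benjamini-Hochberg adjusted p under 0.01). Of these, 751 rose (6.9% of those tested) and 1079 fell (9.91%). The change exceeded 2-fold in 297 of the genes that rose and in 263 of those that fell. The median log2 change was 0.01 over all tested genes, 0.89 over those that rose and -0.71 over those that fell. Genes that rose took 3.45% ± 0.365 of reads at T0 and 6.16% ± 0.160 at T7, and genes that fell took 33.98% ± 2.41 and 25.7% ± 0.667. For 3116 genes (28.6%) the 95% interval of the change from T0 to T7 lay within 1.5-fold (88 of them were called). Another 6033 genes were neither called nor bounded in this way. These intervals are per gene, unadjusted and on the TMM scale, and they do not bound the level between T0 and T7. The split depended on the scaling: with library totals alone, which shift the median change of all genes to 0.16, 66.9% of calls were higher, against 41.04% with TMM scaling. With T3 as the start 653 genes rose (5.99%) and 928 fell (8.51%; 14.5% in all), with T4 416 (3.83%) and 765 (7.04%; 10.9%), and with T6 75 (0.683%) and 149 (1.36%; 2.04%). All of these comparisons share the T7 libraries.

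**Figure D1:**
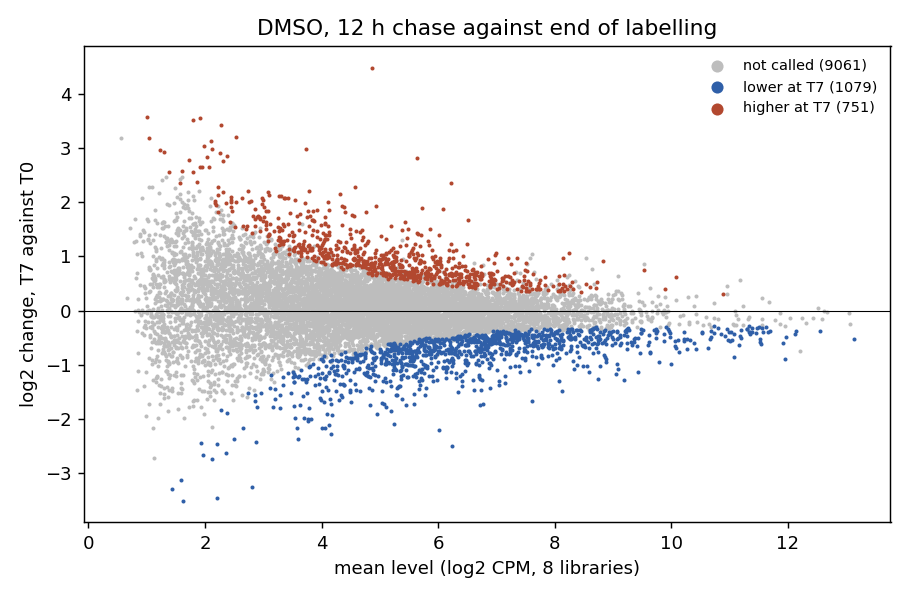
Log2 change from T0 to T7 in DMSO (y axis) against the mean level over 8 libraries (x axis, log2 CPM). Each point is a gene, with 751 higher in red, 1079 lower in blue and 9061 not called in grey.

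The list with the largest share of higher members was the ATF4 response, the transcriptional programme by which cells answer amino acid shortage and other stresses that phosphorylate eIF2α. Of 33 tested genes, 13 rose and 2 fell, with a median log2 change of 0.37 against 0.01 over all genes. Chac1, which degrades glutathione, stood at 5.09, 1.76, 2.19 and 0.644 CPM in the 4 T0 libraries and at 46.9, 62.2, 54.5 and 50.4 CPM in the T7 libraries. Every T7 library was above every T0 library, and the log2 change was 4.48 ± 0.317 (SE, edgeR adjusted p = 9.69e-10). Trib3, a pseudokinase induced downstream of ATF4, was at 9.83, 17.4, 9.76 and 10.95 CPM at T0 and 86.7, 61.5, 91.0 and 98.7 CPM at T7. Its groups did not overlap either, with a log2 change of 2.81 ± 0.196 (edgeR adjusted p = 2.01e-10). Ddit3, which encodes the stress factor CHOP, was at 18.1, 22.1, 20.5 and 33.5 CPM at T0 and at 110.3, 101.1, 131.8 and 138.9 CPM at T7. Its log2 change was 2.36 ± 0.167 (edgeR adjusted p = 2.48e-10), again without overlap.

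Atf4 itself rose by 0.75 on the log2 scale. Genes of amino acid supply also rose, namely the arginine transporter gene Slc7a1 (1.57), the proline synthesis gene Pycr1 (1.63) and the mitochondrial folate enzyme gene Mthfd2 (0.83). Asns, encoding asparagine synthetase, had a log2 change of 0.02 and Phgdh, of serine synthesis, of -0.21, and neither passed the test. Cebpg, a partner of ATF4, and the alanyl-tRNA synthetase gene Aars were the 2 members that fell. The rise came late: the median log2 change of the list from T0 was -0.15 at 5.3 h, 0.17 at 8 h and 0.36 at 12 h. Chac1 had a mean of 2.42 CPM at T0, 1.07 at T5, 16.1 at T6 and 53.5 at T7. With T3 as the start 11 members were higher and 1 lower, with T4 12 and 3, and with T6 9 and 0.

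In the unfolded protein response of the endoplasmic reticulum, 1 of 18 tested genes rose and none fell. The share called was 5.56%, against 16.8% over all genes. The gene that rose was Herpud1, of endoplasmic reticulum associated degradation, which was at 27.2, 23.4, 25.2 and 36.7 CPM at T0 and 98.2, 89.2, 107.4 and 115.0 CPM at T7. The chaperone gene Hspa5 had a log2 change of -0.02. The median log2 change of the list was -0.05.

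Promoter windows of 300 bases were searched for TGATGNAA, the core of the element bound by ATF4 with C/EBP partners, on both strands. It was found in 4 of 12 matched ATF4 response genes that rose, 4 of 14 that were not called and 1 of 2 that fell, against 4.51% of all RefSeq promoters. Among all tested genes with a matched promoter the share was 2.52%, among those that rose 4.03% and among those that fell 2.24%. The matches in genes that rose are shown because they mark which of the induced genes carry the element near the start, with the motif (or its reverse complement) in capitals, all from GRCm38.p6 and written along the gene's strand.
Chac1 (chr2:119351038-119351067, plus strand): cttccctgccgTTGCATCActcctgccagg
Trib3 (chr2:152344028-152344057, minus strand): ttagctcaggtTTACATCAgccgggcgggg
Atf3 (chr1:191183425-191183454, minus strand): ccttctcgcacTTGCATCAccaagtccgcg
Pycr1 (chr11:120643833-120643862, minus strand): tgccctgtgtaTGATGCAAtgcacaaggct

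Mitosis genes fell from each of the starts T0, T3 and T4. Of 29 tested genes 21 fell and none rose, with a median log2 change of -0.76, and 23 fell with T3 as the start and 22 with T4. Aurka, which encodes the kinase Aurora A of the spindle poles, was at 170.2, 161.8, 166.7 and 148.8 CPM at T0 and 50.7, 49.94, 46.02 and 50.04 CPM at T7. Its groups did not overlap, and the log2 change was -1.72 ± 0.112 (edgeR adjusted p = 7.47e-11). Prc1 (-1.47), of the central spindle, Hmmr (-1.43), a spindle assembly factor, and Ube2c (-1.03), of the anaphase-promoting complex, fell as well. Bub1b, a checkpoint kinase gene, had a log2 change of 0.02. The list stayed near the T0 level up to 5.3 h (median -0.08) and was at -0.33 at 8 h and -0.77 at 12 h. In the cyclin and inhibitor list 1 of 21 genes rose, E2f1 (1.41), and 6 fell, among them E2f3 (-1.99).

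The motif TTTGAA, a form of the cell cycle homology region found in promoters of mitotic genes, was searched in the same windows and on both strands. It was found in 13 of 18 matched mitosis genes that fell and in 6 of 7 that were not called, against 20.2% of all promoters and 13.7% of those of tested genes. The stretch of Aurka (chr2:172370521-172370550, minus strand) is shown as the gene with the largest fall, with the motif in capitals.
Aurka: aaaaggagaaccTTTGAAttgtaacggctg

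Genes of naive pluripotency, the ground state that 2i/LIF maintains, mostly fell. Of 19 tested genes 10 fell and 1 rose, with a median log2 change of -0.59, and 10 fell and 1 rose with T3 (18 tested) and with T4 as the start. Klf2, a naive state transcription factor, was at 482.9, 591.8, 631.9 and 651.0 CPM at T0 and 223.0, 228.4, 275.4 and 254.4 CPM at T7. The groups did not overlap, and the log2 change was -1.26 ± 0.103 (edgeR adjusted p = 3.20e-09). Pou5f1 (-0.45) and Nanog (-0.59), core pluripotency factors, fell less, and Esrrb (-0.01) and Tfcp2l1 (0.23) did not pass the test. The member that rose was Klf5, from 80.4 ± 13.96 to 162.7 ± 17.95 CPM (SD, n = 4; log2 change 1.02).

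Formative and primed genes, which mark exit from the naive state, fell too, with 8 of 14 lower and none higher (median -0.88). Etv4 (-1.91) and Dnmt3a (-1.06) were among them. From T4, 7 of 13 were lower. Of the marker genes of mesoderm (5 tested) and neuroectoderm (4 tested), none was called. Of 14 tested BMP and Nodal targets 7 fell (from T4, 6 fell and 1 rose), including Nodal (-1.34), Id3 (-1.39) and Tdgf1 (-1.31), a Nodal co-receptor gene that is also on the naive list. Of 11 genes of FGF-ERK feedback 5 fell and 1 rose, and with T4 as the start 2 of 10 fell. Mycn, the MYC family gene of stem cells, was at 99.8, 107.7, 100.1 and 99.0 CPM at T0 and 20, 21.7, 23.9 and 22.9 CPM at T7, with a log2 change of -2.20 ± 0.137 (edgeR adjusted p = 4.50e-11). Of the remaining 11 genes of the MYC network none was called.

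**Figure D2:**
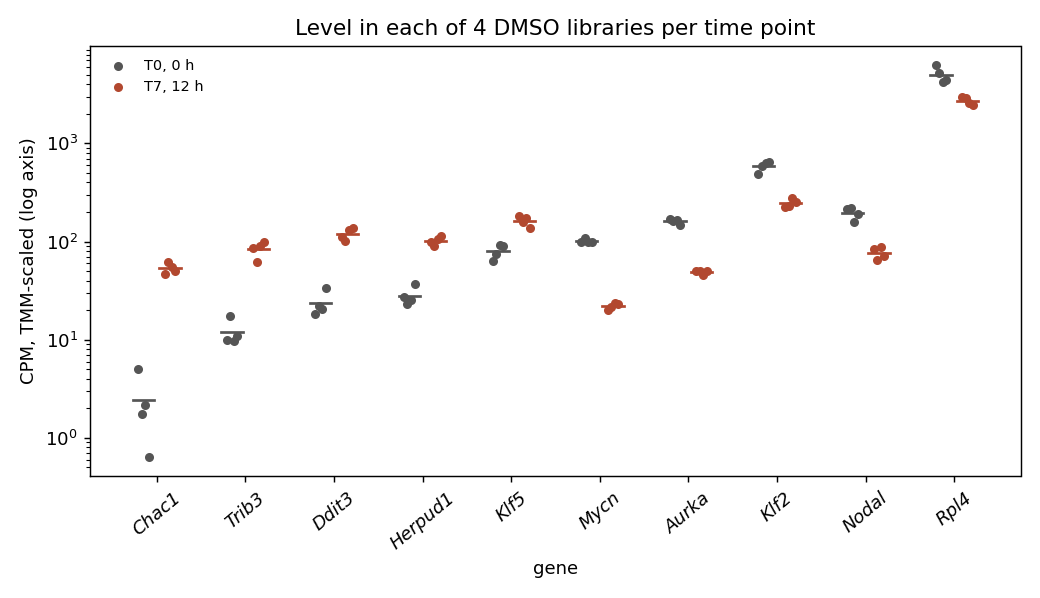
Level of 10 genes (y axis, TMM-scaled CPM, log axis) in each of 4 DMSO libraries at T0 (grey) and T7 (red), with the mean as a line. Chac1, Trib3, Ddit3, Herpud1 and Klf5 were higher in every T7 library, and Mycn, Aurka, Klf2, Nodal and Rpl4 were lower.

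Among the 12 largest increases, beside Chac1, Trib3 and Ddit3, were Slc6a9, a glycine transporter gene, at 2.80 ± 1.84 CPM at T0 and 22.4 ± 5.43 at T7 (SD, n = 4), and Wnt9a, which encodes a WNT ligand, at 3.73 ± 1.60 and 15.6 ± 3.16. From T4 their log2 changes were 2.303 and 3.25, against 2.98 and 2.07 from T0. Gnaz, a G protein subunit gene, changed by 2.28 from T0 and 1.65 from T4. Hspb6, a small heat shock protein gene, changed by 2.12 from T0 but did not pass the test from T4 (0.92, edgeR adjusted p = 0.0415).

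Among the 12 largest decreases were Mir295, of the miRNA cluster typical of mESCs (-2.49), Gbx2, a LIF-STAT3 target (-2.27), and Prr11, a cell cycle gene (-2.36). Of the Mir295 reads 97.6% multimapped, so the count may be shared with near-identical sequences. From T4 these genes changed by -1.76, -1.87 and -1.95, and each passed the test. Kif20b changed by -2.17 from T0 but by -0.40 from T4 (edgeR adjusted p = 0.548). The most abundant genes that fell were Eef1a1, the translation elongation factor gene, Ppia, the cyclophilin A gene, and the pseudogene Rps12-ps3, in which 82.2%, 94.99% and 99.85% of reads multimapped. They changed by -0.53, -0.38 and -0.37 from T0, and none passed the test from T4.

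Cholesterol synthesis genes were divided, with 9 of 26 lower and 2 higher, where 9.91% of all genes fell and 6.9% rose. Mvd (0.64) and Acat2 (0.35) rose from T0. From T4 9 genes of the list were lower and none higher. Of 13 targets of the oxidative stress factor NRF2, 5 fell, led by the thioredoxin reductase gene Txnrd1 (-1.12). In lysosome and autophagy genes 4 of 25 rose, including the cholesterol transporter gene Npc1 (1.22) and the progranulin gene Grn (0.97; from T4 0.24, which did not pass the test), and 3 fell, all of the Atg8 family (Gabarapl1, Gabarapl2 and Map1lc3b). Of 23 p53 targets 1 rose and 5 fell, and Cdkn1a, the p21 gene, was among the latter (-0.54). Its log2 change was -0.27 from T3 and -0.35 from T4, but 0.31 from T1, 0.24 from T2, 0.39 from T5 and 0.07 from T6. Of these changes only that from T4 passed the test. The calls in the list were few and depended on the start, with 3 of 24 higher and none lower from T3 and 3 higher and 2 lower of 23 from T4. The share called was 12.5% from T3, against 14.5% over all genes, and 21.7% from T4, against 10.9%.

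Pyrimidine metabolism, through which s4U and the chase uridine enter the nucleotide pool, had 3 of 20 tested genes higher and 3 lower. Over all genes, 6.9% rose and 9.91% fell from T0, and 3.83% and 7.04% from T4. The equilibrative nucleoside transporter gene Slc29a2 (1.33) and the uridine phosphorylase gene Upp1 (0.65) rose from T0, and Umps (-0.47), of uridine monophosphate synthesis, and the uridine-cytidine kinase gene Uck2 (-0.39) fell. From T4 Slc29a2 rose (0.67) and no gene of the list fell, and Upp1 had log2 changes of 0.02 from T3 and -0.26 from T4, neither of which passed the test. Of 17 genes of the m6A machinery 4 fell, led by the m6A reader gene Ythdf2 (-0.93 from T0, and -0.19 from T4, which did not pass the test), and 1 fell from T4. Mitochondrial ribosomal protein genes gave 19 of 76 lower and 1 higher, and 9 lower from T4. Of the other lists, ribosome biogenesis had 8 of 41 lower, the proteasome 7 of 38 lower and WNT targets 4 of 14 lower, and from T4 these counts were 6, 5 and 2. The share called from T0 was close to the 16.8% of all genes in ribosome biogenesis (19.5%), the proteasome (18.4%), YAP targets (18.2%) and glycolysis (15.8%). In hypoxia targets it was lower (11.1%). DNA replication had 6 of 30 lower and 2 higher from T0 and no call by edgeR from T4. Heat shock had 4 of 16 lower from T0, but 3 higher and 1 lower from T3 and 5 higher and 1 lower from T4, so its direction turned with the start. Immediate early genes had 4 of 13 lower and 1 higher, LIF-STAT3 targets 2 of 12 lower and 1 higher, glycolysis 2 of 19 lower and 1 higher, hypoxia targets 1 of 18 in each direction, YAP targets 2 of 11 lower and AU-rich element binding proteins 2 of 9 lower. Of 6 interferon response genes and 2 fibroblast markers none was called by edgeR, and in endoderm (3 tested) and trophectoderm markers (5 tested) 1 was higher and 1 lower in each. No gene of the 2-cell-like list had enough reads to be tested. Solute carrier genes, grouped after their values were seen, had 22 of 193 higher and 4 lower.

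**Figure D3:**
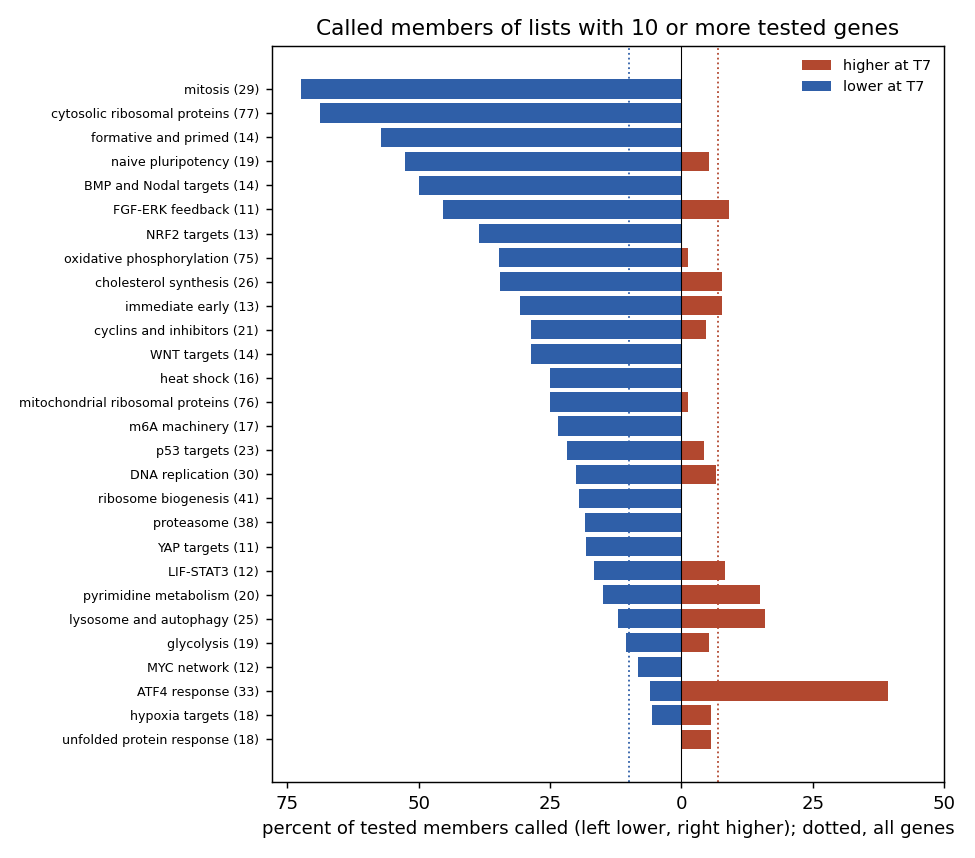
Percent of members called, in lists with 10 or more tested genes, as lower (blue, left) or higher (red, right) at T7 against T0, with the number tested in brackets and the share over all genes as dotted lines (9.91% lower, 6.9% higher). Mitosis and cytosolic ribosomal proteins had the largest shares of lower members, and the ATF4 response the largest share of higher ones.

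The calls of other groups depended on the starting point. Of 77 cytosolic ribosomal protein genes 53 fell and none rose from T0 to T7 (median -0.41), but 37 fell with T3 as the start, 11 with T4 and 1 with T6. Rpl4, of the large subunit, was at 6212, 5196, 4190 and 4451 CPM at T0 and at 2936, 2869, 2591 and 2441 CPM at T7. Its mean was 7517 CPM at T1, 2995 at T4, 5532 at T5 and 2709 at T7, so its level did not move steadily with time, and the log2 change was -0.89 from T0 and -0.14 from T4 (edgeR adjusted p = 1.28e-06 and 0.186). Without multimapping reads 29 genes of the list were lower, and with library totals alone 31. Oxidative phosphorylation genes gave 26 of 75 lower from T0 and 8 of 75 from T4.

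Replication-dependent histone genes, a group chosen after their values were seen, showed the same dependence. From T0 10 of 26 tested fell (median -1.02), and from T4 1 of 22 rose and 1 fell. Their transcripts end in a stem-loop and mostly lack the poly(A) tail that the oligo(dT) primer of the library kit binds. Their summed level was 431.6 to 510.4 CPM at T0, 365.7 to 517.4 at T2 and 391.9 to 524.9 at T5, but 179.3 to 286.2 over the libraries of T1, T3, T4, T6 and T7. Hist2h2ac had means of 58.9 CPM at T0, 8.71 at T1, 44.1 at T5 and 13.9 at T7, and its log2 change was -2.09 from T0 and 1.18 from T4. The part of RNA handling in these levels was not tested. Of the 3 most abundant genes that rose from T0, Cct7, Mdk and Uba1, none rose from T4, with log2 changes of -0.13, -0.10 and -0.06.

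**Figure D4:**
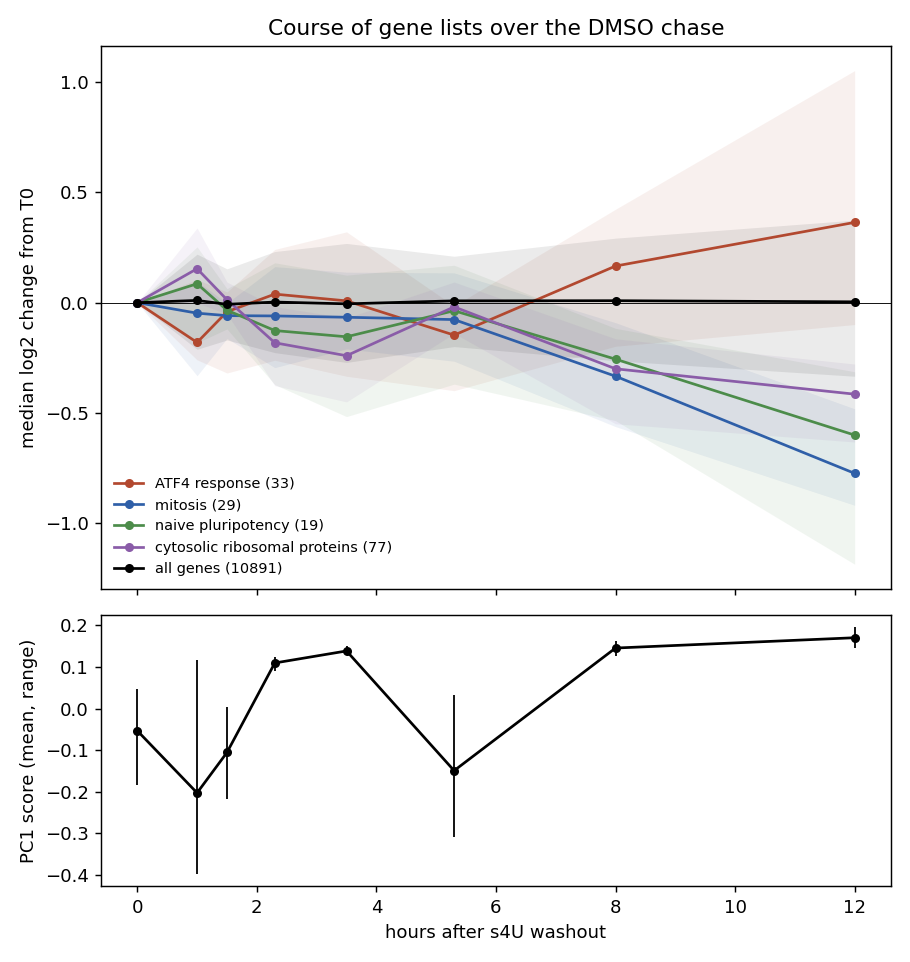
Top, median log2 change from T0 of 4 gene lists and of all genes (y axis) against hours after washout (x axis), with the quartiles shaded. Bottom, mean score of each time point on the first principal component with the range of 4 libraries, which was low at 0, 1, 1.5 and 5.3 h and high at 2.3, 3.5, 8 and 12 h.

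Over all time points in 1 fit, 6 genes were called against T0 at T1, 1 at T2, 22 at T3, 143 at T4, 29 at T5, 343 at T6 and 1526 at T7, of 11903 tested (0.0504%, 0.0084%, 0.185%, 1.2%, 0.244%, 2.88% and 12.8%). The count was thus lower at 5.3 h than at 3.5 h. Genes that rose by T7 had a median log2 change from T0 of 0.42 at T4, 0.05 at T5 and 0.60 at T6. Genes that fell had -0.31, -0.04 and -0.45. Neither class moved steadily with the hours, and at T5, where the first component was low, both medians were close to 0.

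Libraries that the comparison of T7 with T0 did not use gave the following. Over T1 to T6, 104 of 11278 genes had a slope with time (0.922%). Of the 744 genes that rose by T7 and were tested, 717 had a positive slope, and of 1079 that fell 1036 had a negative one, against 49.9% positive over all genes. Few of these slopes passed the test, 25 of the former (0.275% of all genes had a positive slope call) and 55 of the latter (0.647%). The mean score on the first component also differed between these time points, with T3, T4 and T6 above T1, T2 and T5. Single T1 libraries ranged from -0.40 to 0.12 and overlapped those of T3 (0.091 to 0.12). Leaving out any one replicate number lowered the slope calls to between 7 and 17. In STM2457, T7 against T0 gave 981 calls of 10904 (9%), and 479 to 628 with any one replicate number left out. Of 739 genes that rose in DMSO 671 were above 0 there and 159 rose (4.04% of all genes), and of 1078 that fell 957 were below 0 and 353 fell (4.95%), against 50.8% above 0 over all genes. Multimapping shares at T0 and T7 were 26.5% to 27.97% and 22.5% to 24.9% in STM2457, and the part of this shift in the counts was not tested. Without s4U against T1, 3 of 10690 genes were called (0.0281%) by edgeR, 1313 had an unadjusted p under 0.05, and DESeq2 called 42, while leaving out 1 replicate number gave 0 to 93 calls.

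The change over the chase differed between DMSO and STM2457 for 211 of 11538 genes (1.83%, edgeR interaction test), and for 74 to 158 with 1 replicate number left out. Of the 1830 genes called in DMSO 161 were among them, and in 157 of these the change was larger in DMSO. The genes were chosen for their change in the same DMSO libraries, which favours a larger change in DMSO, so this count is a description. Ddit3 changed by 2.36 in DMSO and by 0.24 in STM2457 (log2; edgeR interaction adjusted p = 1.68e-06). Chac1 rose in both, by 4.48 and 2.00 (edgeR interaction adjusted p = 0.00240). Mycn fell in both, by 2.20 and 0.79 on the log2 scale (edgeR interaction adjusted p = 2.47e-06). Kif20b, a mitotic kinesin gene, changed by -2.17 and -2.19 (edgeR interaction adjusted p = 0.993).

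Levels of X-chromosomal genes were compared with autosomal ones because half-lives are set against each other by chromosome in this system. The median log2 level of 371 X-chromosomal genes minus that of 10503 autosomal genes was -0.38, -0.32, -0.46 and -0.44 in the T0 libraries and -0.60, -0.43, -0.48 and -0.57 in the T7 libraries. The groups overlapped, and the difference of -0.12 did not pass the test (two-sided exact permutation test, p = 0.0857). It was -0.21 without multimapping reads (exact permutation p = 0.0286) and -0.19 over genes with a mean of at least 100 reads per library (exact permutation p = 0.0571). The median log2 change was -0.14 for the X chromosome, the lowest of 20 chromosomes, and 0.02 for all autosomal genes. Single autosomes ran from -0.12 (chromosome 13) to 0.10 (chromosome 19). Of X-chromosomal genes 15.9% were called, and of autosomal genes 16.8%. Of the X-chromosomal genes 14 rose (3.77%) and 45 fell (12.1%), against 6.9% and 9.91% over all tested genes.

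To show what the drift does to a half-life, each DMSO half-life was fitted from the conversion rate alone and again with each time point multiplied by the level relative to T0. Of 8776 transcripts that passed the filters and were tested, 1642 were called for drift (18.7%). The median half-life was 3.10 h without and 3.16 h with the level. For the genes that rose, the median ratio of the half-life with the level to that without was 1.23, and for those that fell 0.87. These directions follow from the calls, which use the same T0 and T7 libraries. For single series, time points were joined by replicate number, although the numbers were not taken as pairs. Fits to these series gave medians of 1.04 to 1.79 and of 0.70 to 0.96, so the size was poorly fixed. For genes not called the ratio was 1.01, with 1.01 in the highest of the series. The half-life moved by over 1.5-fold in 589 transcripts (6.71%), of which 116 rose, 83 fell and 390 were not called for drift. Rpl4, whose level did not move steadily with time, had 9.85 h without and 6.12 h with the level. The levels entered also hold the differences between time points on the first principal component, which did not follow the hours. The part of that component in these ratios was not tested.

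**Figure D5:**
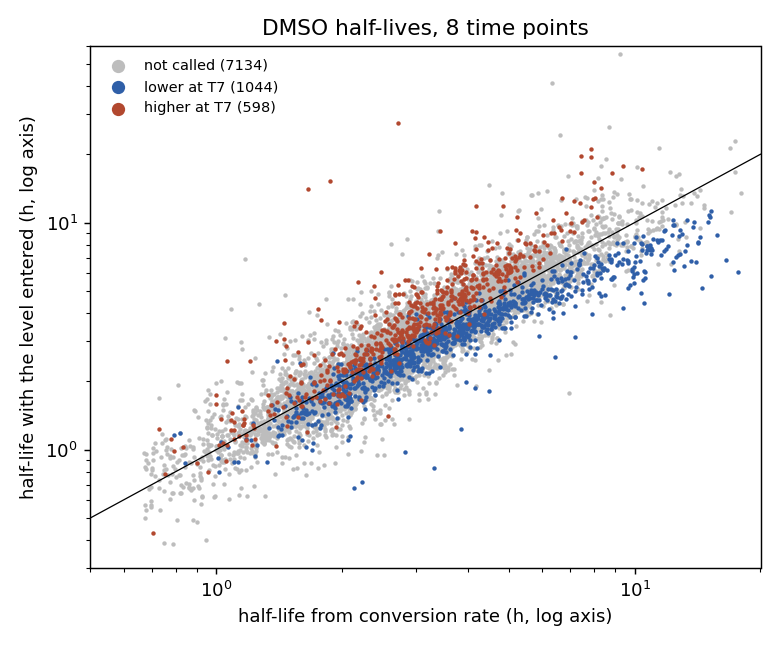
Half-life with the level entered (y axis, h, log axis) against half-life from the conversion rate alone (x axis, h, log axis) in DMSO, with the line of equality. Genes higher at T7 (598, red) lie mostly above the line and genes lower at T7 (1044, blue) mostly below, and 1 transcript is outside the plotted range.

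By half-life from the conversion rate alone, 117 of 319 transcripts over 8 h fell (36.7%) and 7 rose, and 135 of 1540 under 2 h fell (8.77%) and 110 rose. A falling level lengthens that half-life by itself, so these classes are not independent of the drift. The median was 3.42 h for genes that fell, 3.02 h for genes that rose and 3.06 h for those not called, and with the level entered it was 3.11 h, 3.90 h and 3.13 h. The counting windows differed as well, with a median T content of 28.04% for genes that rose, 32.1% for genes that fell and 30.4% for those not called. Over 50% of the reads multimapped in 15.5% of the genes that fell, 0.932% of those that rose and 3.42% of those not called. The part of mapping in these differences was not tested.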

How the data were processed

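Per gene and library, the authors deposited raw counts (reads, multimapping reads, covered T positions, T-to-C conversions), CPM and the conversion rate as a fraction, made with SLAM-DUNK on GRCm38.p6 3′ windows. The submitters' processing notes name FastQC 0.11.8. The deposited CPM and fraction were not used in tests. Groups follow the labels, and the hours of chase follow the study's scheme, since the labels give T0 to T7 only. Replicates are separate samples. The 12 replicate pairs of T0 and T7 differed beyond sampling noise (chi-square per degree of freedom 5.60 to 22.3). Counts were tested in edgeR 4.0.16 (TMM, filterByExpr, robust quasi-likelihood), checked on simulated data, with DESeq2 1.42.0 and limma 3.58.1 as alternatives, in R 4.3.3 and Python 3.11.15. Transcripts were kept for half-lives if T coverage was over 100, the fit gave 0.67 to 18 h, and its residual standard error did not exceed 0.3. Principal components used 6788 genes, log2(CPM + 1). Positions came from GENCODE M21 and promoters from RefSeq.

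Named genes were those called with a mean of at least 50 reads and non-overlapping groups, by size, level and list. Other genes were chosen after their values were seen. Members and lists were chosen with earlier results of these data known, and the other starting points were added after seeing the data. Intervals cover the spread between these libraries. Some named genes are not reported here.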

Additional observations from a re-analysis of the deposited data

Results flagged for a closer look

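In groups of 4 libraries, 7 of 70 groups held a library far from the other 3, where chance gives about 3.5. At T0, Trib3 in replicate 2 was at 17.4 CPM (mean of the others 10.2), Mycn in replicate 2 at 107.7 (99.6), Kif20b in replicate 1 at 39.7 (21.2) and Tmem60 in replicate 1 at 33.9 (16.2). At T7, replicate 1 held 4539726 reads (5410445), Rnf135 in replicate 2 was at 28.1 CPM (32.1) and Wnt9a in replicate 2 at 10.9 (17.1).

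For 11 of the 30 genes with the largest changes or levels, the change over the chase differed between DMSO and STM2457 in the edgeR interaction test. The log2 change in DMSO minus that in STM2457 was 2.47 for Chac1, 1.72 for Trib3, 2.11 for Ddit3, 1.92 for Gnaz and 2.17 for Rnf135. It was -2.10 for Mir295, where 97.6% of reads multimapped, -1.41 for Mycn, -1.91 for Gm32061, -1.84 for Tmem60, -1.83 for Gspt2 and -1.59 for E2f3. Most of these genes were chosen for extreme changes in the same DMSO libraries, so their number and the direction of the differences are partly set by that choice.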

How the results depend on the processing

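The number of genes called between T0 and T7 was 985 (403 higher, 582 lower) against a fold of 1.2, 3097 (1423 and 1674) at adjusted p under 0.05, and 1342 higher and 664 lower with library totals only, and 498 were higher with 32 libraries in the fit. With starts chosen after seeing the data it was 945 (324 and 621) from T1, 1181 (416 higher) from T4 and 224 (75 and 149) from T6, and the interval is shorter with these. Of the 1830 genes, 961 were shared with the calls from T3 and 671 with those from T4. The slope gave 247 calls in DESeq2 and 410 at 0.05, STM2457 gave 1905 at 0.05, and the interaction 493 at 0.05. DMSO without s4U against T1 gave 7 with no filter, 42 in DESeq2, 8 at 0.05 and 17 with the replicate block. X-chromosomal minus autosomal levels changed by -0.21 without multimapping reads (exact permutation test, p = 0.0286).

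With 1 replicate left out, calls between T0 and T7 ranged from 1322 to 1952 (511 to 824 higher, 800 to 1128 lower), slope calls from 7 to 17, STM2457 calls from 479 to 628, interaction calls from 74 to 158, calls without s4U from 0 to 93, genes bounded within 1.5-fold from 2628 to 3284, the X-chromosomal difference from -0.15 to -0.10, and the half-life ratio from 1.12 to 1.30 (genes that rose) and 0.845 to 0.931 (genes that fell). The replicate block gave 1907 calls between T0 and T7, and same-numbered libraries had a mean correlation of 0.013, so the numbers name the libraries and were not taken as pairs.

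The alternatives counted for named genes included the starts T3 and T4 but not T1, T2, T5 or T6. Of these 2727 log2 changes, 2493 kept direction and side of the threshold and 21 changed sign. These were Rps12-ps3 without multimapping reads (0.034); from T3, Cct7 (-0.074), Uba1 (-0.025), T (0.19), Hsp90aa1 (0.042) and Hspa8 (0.083); and from T4, Hist1h2ab (0.22), Hist2h2ac (1.18), Cct7 (-0.13), Mdk (-0.10), Uba1 (-0.056), Sparc (0.16), Nes (-0.12), Thy1 (0.067), Ldha (0.015), Pgk1 (0.068), Fam162a (0.20), Hsp90aa1 (0.10), Hspa8 (0.24), Upp1 (-0.26) and Uckl1 (-0.0082). Further sign changes from the uncounted starts included Cdkn1a, at 0.31 from T1, 0.24 from T2, 0.39 from T5 and 0.073 from T6. Hist2h2ac was at 0.65 from T1, Dusp6 at 0.39 from T6, and Nqo1 (0.10) and Ppia (0.056) were positive from T5. The cause was not tested.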
